A study of Arabidopsis thaliana with 4 samples.

Results

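Genes that respond early to stress, cold and touch were followed in inflorescences of Arabidopsis thaliana, each through 1 probe set of the ATH1 oligonucleotide array. They are 10 genes chosen by name, with earlier results of these data known. Their probe sets are 10 of the 22810 on the array: the zinc finger genes STZ (261648_at) and ZAT12 (247655_at), the WRKY genes WRKY40 (261892_at) and WRKY33 (267028_at), the ERF genes ERF5 (248799_at) and ERF2 (248794_at), the cold regulators CBF1 (254074_at), CBF2 (254075_at) and CBF3 (254066_at), and TCH4 (247925_at), which encodes a cell wall enzyme. The platform annotation used here names only STZ, and the other 9 probe sets carry the names under which they were chosen. Both genotypes were of the Col-0 ecotype: xrn4-5, named for its allele of XRN4, and the wild type, called Col-0. Mixed-stage inflorescences were taken from plants in long days at 21 °C. Their total RNA was the starting material for 4 arrays, 2 for xrn4-5 and 2 for Col-0, with the numbers 1 and 2 in each genotype. XRN4 digests RNA that has lost its cap, in the cytoplasm and in the 5' to 3' direction, and the gene is also known as EIN5 for the weak ethylene response of its mutants. The XRN4 transcript itself was not analysed here, since none of the named probe sets belongs to it.

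Genes of this kind form the first transcriptional layer of the plant stress response. Their transcripts are usually scarce in undisturbed tissue, rise within minutes of touch, wounding, cold or a microbial signal, and are short-lived. The proteins then switch later genes on or off: CBF proteins bind the C-repeat element of cold-responsive genes, WRKY proteins bind the W-box, ERF proteins bind the GCC box, and the zinc finger proteins STZ and ZAT12 act mainly as repressors.

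The deposited values are signals in arbitrary units, scaled alike in all arrays, with medians from 239.6 to 248.0 per array. Probe sets differ in how strongly they bind, so signals are compared between arrays and not between genes. Nothing in the labels tells whether arrays 1 and 2 of a genotype come from different plants, and p-values cover only the spread between these arrays, which may be technical. Where a genotype has 2 signals or an SD with n = 2, these refer to its arrays 1 and 2, which are not known to be separate plants. In such whole-tissue RNA, fewer cells that express a gene and less RNA per cell cannot be told apart. Differences are given on the scale of log2(signal + 32), as xrn4-5 minus Col-0, which understates changes of dim probe sets. Of the 15 inflorescence markers listed, 4 had a named probe set. Their summed signal lay between 2660.4 and 3143.2 in xrn4-5 and between 2901.0 and 3632.9 in Col-0. Most of it came from A9, with 1814.9 and 2209.0 in the xrn4-5 arrays and 2002.2 and 2668.3 in the Col-0 arrays. AP1, AP3, PI, AG and SEP3, which define floral organs, had no named probe set here. Of the 4 genes with a named probe set 2 had higher and 2 had lower estimates in xrn4-5, and 0 were called. Of the 12 markers of roots and green leaves 3 were named, with sums from 14619.6 to 15825.2 in xrn4-5 and from 14587.4 to 16883.5 in Col-0, nearly all of it from the leaf gene RCA. The root genes PYK10 and EXPA7 averaged 87.3 ± 7.28 and 78.0 ± 1.98 in xrn4-5 (SD, n = 2) and 72.4 ± 22.8 and 106 ± 5.94 in Col-0 (SD, n = 2).

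Signals of 8 of the 10 genes were lower in xrn4-5 by their estimates, and those of CBF1 and CBF3 were higher. None of the 10 passed the test (limma, adjusted p under 0.05), which 0.00733% of tested probe sets passed as higher and 0% as lower. In 4 genes, ZAT12, WRKY33, ERF2 and TCH4, both xrn4-5 arrays lay below both Col-0 arrays, while the arrays of the genotypes overlapped in the other 6. Among all 22746 probe sets that are not controls, 17.2% had both xrn4-5 arrays below both Col-0 arrays and 21.4% had both above. The Col-0 arrays also differed from each other: array 2 of Col-0 was above array 1 in all 10 genes, by a median of 0.88 on the log2 scale.

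**Figure D1:**
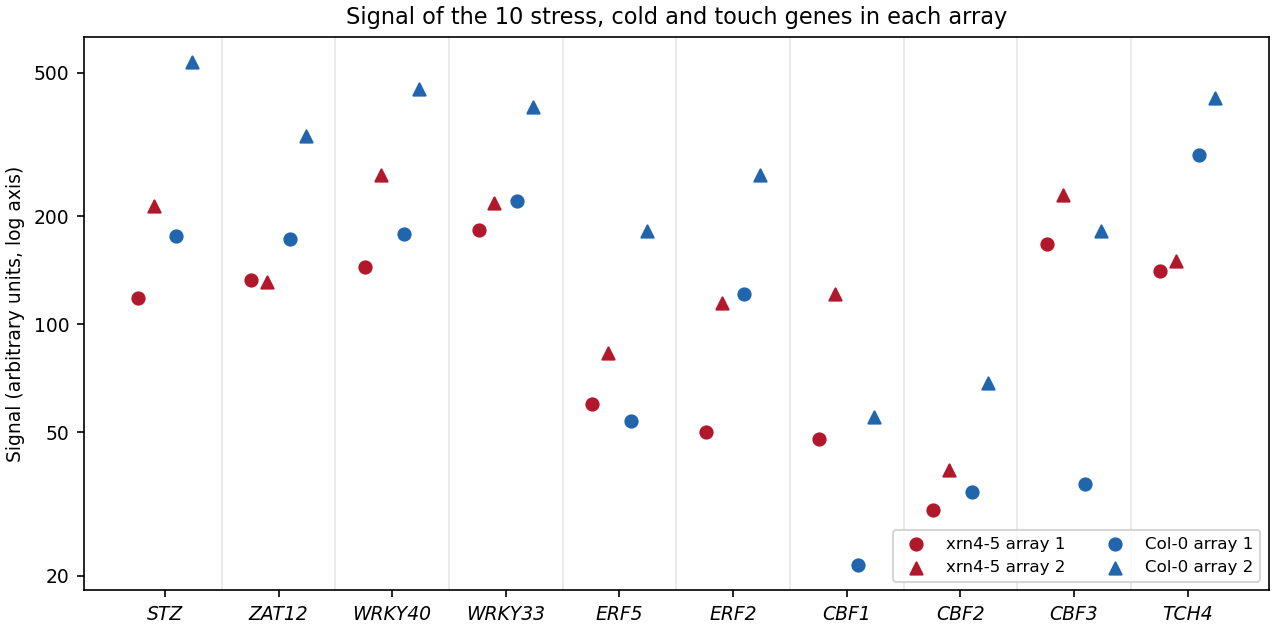
Signal of each gene (arbitrary units, log axis) in the 2 xrn4-5 arrays (red) and the 2 Col-0 arrays (blue); circles are arrays numbered 1 and triangles arrays numbered 2. Array 2 of Col-0 is the highest of the 4 arrays in 8 genes, and array 2 of xrn4-5 is the highest for CBF1 and CBF3.

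The zinc finger genes were lower in xrn4-5 by their estimates, without passing the test. STZ, also called ZAT10, encodes a repressor induced by salt, cold and wounding. It had signals of 118.2 and 213.3 in the xrn4-5 arrays 1 and 2, against 176.4 and 536.6 in the Col-0 arrays 1 and 2. The genotypes overlapped, and array 2 of Col-0 stood apart from the other 3. The log2 difference was -0.84, with a 95% interval from -2.08 to 0.39 (limma adjusted p = 0.665). It ranged from -1.57 without array 1 of Col-0 to -0.12 without array 2 of Col-0. ZAT12 encodes a zinc finger protein of the response to oxidative and high-light stress. It had signals of 133.1 and 130.9 in the xrn4-5 plants, against 172.5 and 333.1 in the Col-0 arrays. Its xrn4-5 arrays were nearly equal and both lay below Col-0, whose arrays differed 1.93-fold from each other. On the log2 scale the genotypes differed by an estimated -0.74, with an interval from -1.47 to -0.01 (limma unadjusted p = 0.0485, adjusted p = 0.529). In a fit of all probe sets the interval ran from -1.54 to 0.07 (limma unadjusted p = 0.0658), and the estimate was -1.15 without array 1 of Col-0 and -0.32 without array 2 of Col-0.

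Both WRKY genes had their highest signal in array 2 of Col-0. WRKY40, induced by pathogens and known as a repressor of defence and abscisic acid responses, had signals of 144.2 and 260.6 in xrn4-5 plants, against 178.1 and 452.0 in Col-0. Its genotypes overlapped, since array 2 of xrn4-5 exceeded array 1 of Col-0. The estimate on the log2 scale was -0.49, with an interval from -1.58 to 0.60 (limma adjusted p = 0.768), and it became 0.11 without array 2 of Col-0. WRKY33, needed for resistance to necrotrophic fungi, had signals of 182.4 and 217.9 in xrn4-5 plants, against 220.6 and 400.9 in Col-0. The groups did not overlap, but the upper xrn4-5 array and the lower Col-0 array were nearly equal. Its log2 difference was -0.51, with an interval from -1.20 to 0.17 (limma adjusted p = 0.636), and the estimate was -0.90 without array 1 of Col-0 and -0.13 without array 2 of Col-0.

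The ERF genes encode activators that bind the GCC box and respond to ethylene, jasmonate and wounding. ERF2 and ERF5 lie close together on chromosome 5, with 1 protein-coding gene between them in the TAIR10.1 annotation. ERF2 had signals of 50.1 and 114.6 in xrn4-5 plants, against 121.6 and 259.6 in Col-0. Its array 2 was 2.29-fold above array 1 in xrn4-5 and 2.13-fold in Col-0, and both xrn4-5 arrays lay below both Col-0 arrays. For ERF2 the log2 difference was -0.95, with an interval from -2.07 to 0.18 (limma adjusted p = 0.673 in the fit of all probe sets). The estimate lay between -1.41 without array 1 of Col-0 and -0.49 without array 2 of Col-0, and it was -0.53 without array 1 of xrn4-5. ERF5 had signals of 59.9 and 83.1 in xrn4-5 plants, against 53.9 and 182.0 in Col-0. Here 3 arrays lay close together, and array 2 of Col-0 was the one apart. For ERF5 the log2 difference was -0.40, with an interval from -1.61 to 0.81 (limma adjusted p = 0.865 in the fit of all probe sets), and it was 0.26 without array 2 of Col-0.

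TCH4 had the smallest p of the 10 genes. It encodes a xyloglucan endotransglucosylase/hydrolase, an enzyme that cuts and rejoins xyloglucan in the cell wall, and is a classic touch-induced gene. Its signals were 140.3 and 149.7 in xrn4-5 plants, against 295.8 and 426.8 in Col-0. The xrn4-5 arrays were close to each other and well below both Col-0 arrays. Their means were 145 ± 6.65 in xrn4-5 and 361 ± 92.6 in Col-0 (SD between arrays, n = 2 arrays each). The log2 difference was -1.13, with an interval from -1.64 to -0.63. With limma the unadjusted p was 0.00167 and the adjusted p over all tested probe sets was 0.390, so the gene did not pass. Leaving out any one array kept the estimate between -1.37 and -0.89.

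The cold regulators CBF1, CBF2 and CBF3 did not share a direction. They encode closely related AP2-domain activators, and in the TAIR10.1 annotation they stand side by side on chromosome 4 with 0 protein-coding genes between neighbours, in the order CBF2, CBF3, CBF1. How far each probe set is specific to its own gene among these similar sequences was not tested. CBF3 had signals of 166.9 and 229.2 in xrn4-5 plants, against 35.9 and 181.9 in Col-0. Here array 1 of Col-0 was the one apart, by the signals themselves more than 4-fold below each of the other 3. Its log2 difference was 0.92, with an interval from -0.55 to 2.39 (limma adjusted p = 0.751 in the fit of all probe sets), and it ranged from 0.09 without array 1 of Col-0 to 1.75 without array 2 of Col-0.

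CBF1 had signals of 47.9 and 121.0 in xrn4-5 plants, against 21.4 and 55.1 in Col-0. The genotypes overlapped, and array 2 was 2.53-fold above array 1 in xrn4-5 and 2.57-fold in Col-0. The estimate was 0.70, with an interval from -0.37 to 1.76 (limma adjusted p = 0.744 in the fit of all probe sets). It was 0.23 without array 2 of xrn4-5, 0.34 without array 1 of Col-0 and 1.17 without array 1 of xrn4-5. CBF2 had signals of 30.5 and 39.4 in xrn4-5 plants, against 34.2 and 68.8 in Col-0. The 3 arrays other than array 2 of Col-0 lay close together, and the estimate of -0.29 (interval from -0.97 to 0.39, limma adjusted p = 0.818 in the fit of all probe sets) came to 0.01 without array 2 of Col-0.

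**Figure D2:**
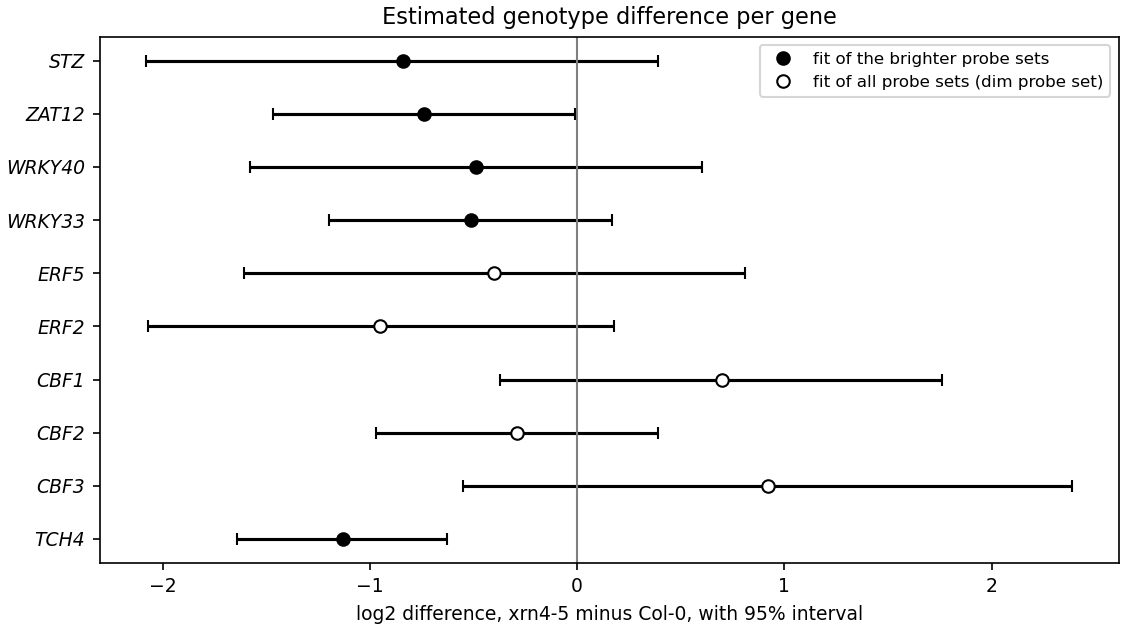
Estimated difference per gene on the log2(signal + 32) scale, xrn4-5 minus Col-0, with its 95% interval from limma (n = 2 arrays each); filled points come from the test of the brighter probe sets and open points from the fit of all probe sets. The interval of TCH4 leaves out 0 and that of ZAT12 ends at -0.01, or at 0.07 in the fit of all probe sets; neither gene passed after adjustment.

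The test covered the 13647 probe sets left after those with the lowest mean signal were set aside, and 5 of the 10 genes were among them: STZ, ZAT12, WRKY40, WRKY33 and TCH4. The lowest mean signal tested was 159.5. ZAT12, with a mean of 192.4 over the 4 arrays, was just above that limit and CBF3, with 153.5, just below it. The xrn4-5 means of ZAT12 and TCH4 alone were below the limit, so these genes were tested through their Col-0 signal. The 5 dimmer genes were taken from a fit of all probe sets, in which 0% passed after adjustment. In that fit an unadjusted p under 0.05 was found for 1 of the 10 genes, against 7.97% of all probe sets. The gene was TCH4, with an unadjusted limma p of 0.00353. Over all 10 genes the median log2 difference was -0.50, beside 0.02 over all probe sets.

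The spread between the Col-0 arrays was large for these genes. They were chosen with earlier results of these data known, so the shares beside their counts are no independent support. In Col-0, array 2 was above array 1 in 10 of the 10 genes, against 45.8% of all probe sets. In xrn4-5 it was above in 9 of the 10, with ZAT12 the exception, against 52.3% of all probe sets. Both held for 9 genes, against 27.0% of all probe sets. Array 2 of Col-0 was the highest of all 4 arrays in 8 genes, against 21.7% of all probe sets. CBF1 and CBF3 were the exceptions, with their highest signal in array 2 of xrn4-5.

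The size of that spread differed between the genes. Within Col-0, the log2 difference of array 2 minus array 1 was 1.66 for CBF3, 1.45 for STZ, 1.32 for ERF5 and 1.20 for WRKY40. These 4 genes differed at least 2-fold on the log2(signal + 32) scale, as did 1.62% of all probe sets in that direction. ERF2, ZAT12, WRKY33, CBF1 and CBF2 followed with 0.92, 0.84, 0.78, 0.71 and 0.61, and TCH4 had the smallest gap with 0.49. A gap as large as that of CBF3, in either direction, was found in 0.444% of all probe sets, and one as large as that of TCH4 in 16.2%.

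On the log2(signal + 32) scale, the arrays were closer to each other in xrn4-5 than in Col-0 for 9 genes, CBF1 being the exception. By the ratio of the signals themselves it was also 9 genes, but the exception was ERF2. The log2 difference of array 2 minus array 1 was highest for CBF1 with 0.94, ERF2 with 0.84, WRKY40 with 0.73 and STZ with 0.71. It was 0.39 for CBF3, 0.32 for ERF5, 0.22 for WRKY33 and 0.19 for CBF2, and TCH4 and ZAT12 had 0.08 and -0.02. With 1 gap per genotype, this contrast between the genotypes was not tested. The median absolute gap over the 10 genes was 0.36 in xrn4-5 and 0.88 in Col-0. Over the probe sets tested it was 0.15 in xrn4-5 and 0.16 in Col-0, and over the dimmer ones it was 0.24 in both. In 8 genes the gap between the Col-0 arrays exceeded the estimated difference between the genotypes, while in ERF2 and TCH4 the genotype difference was the larger one. For this count, and for the counts of genes with closer arrays in xrn4-5, no share over all probe sets is given. They are therefore not read as traits of these genes.

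**Figure D3:**
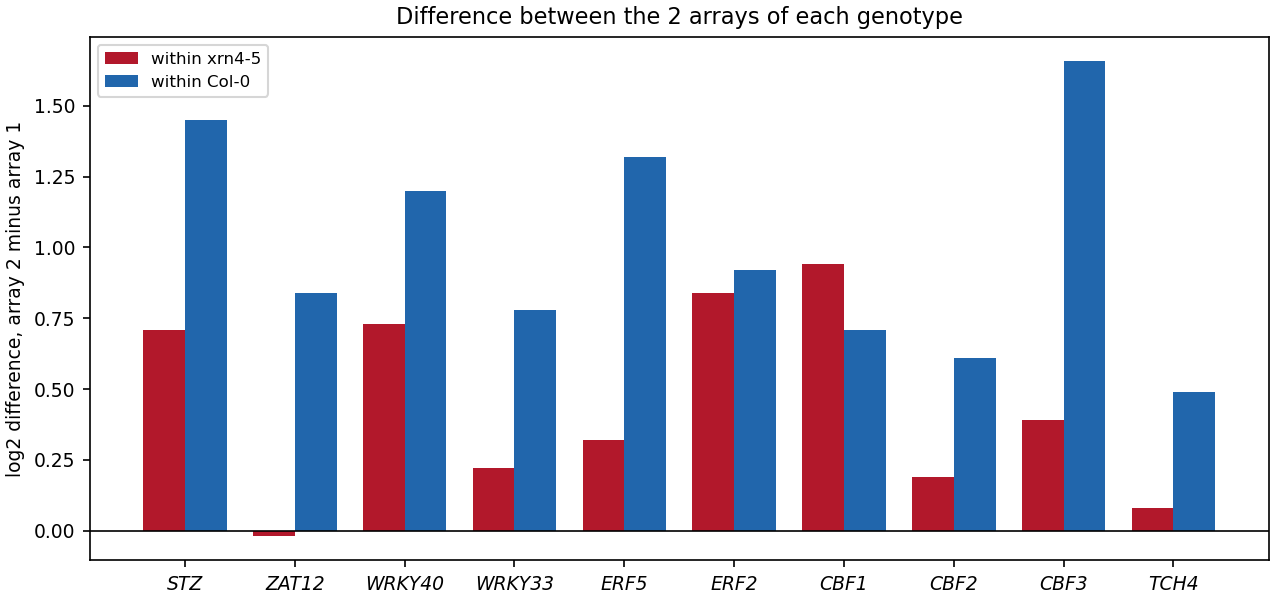
Difference between the 2 arrays of one genotype, array 2 minus array 1 on the log2(signal + 32) scale, within xrn4-5 (red) and within Col-0 (blue). All 10 Col-0 bars are above 0, from 0.49 for TCH4 to 1.66 for CBF3, while the xrn4-5 bars run from -0.02 for ZAT12 to 0.94 for CBF1.

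The authors compared same-numbered arrays, and their table holds a log2 ratio, xrn4-5 over Col-0, for either number. In the authors' deposited table, TCH4 had ratios of -0.6 for arrays 1 and -1.7 for arrays 2, and STZ had -0.4 and -1.2. The ratios of ERF2 in the authors' deposited table were -1 and -0.9, those of ZAT12 -0.5 and -1.1, those of WRKY33 -0.4 and -1, and those of WRKY40 -0.3 and -0.7. These 6 genes were below 0 in both comparisons of the authors' deposited table, as were 18.9% of all probe sets. ERF5 turned, with ratios of 0.4 and -1 in the authors' deposited table. CBF3 had ratios of 2 and 0.7 and CBF1 had 1.4 and 0.7 in the authors' deposited table, so both were above 0 for each number, as were 26.8% of all probe sets. CBF2 had 0.5 and 0 there.

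That table also gives a change p-value for each such pair of arrays, which approaches 0 where the signal increased and 1 where it decreased. It was over 0.99 in both comparisons of the authors' deposited table for TCH4 and STZ, against 1.93% of all probe sets. For arrays 2 it was over 0.99 in 7 of the 10 genes, against 6.37% of all probe sets, and for arrays 1 in 2 genes, against 6.92%. Only CBF3 was under 0.01 in both, with 3e-05 and 0.003041 in the authors' deposited table, against 2.31% of all probe sets. For CBF1 the change p-value in the authors' deposited table was 0.307406 for arrays 1 and 0.002753 for arrays 2. These comparisons use the same arrays as the values above and hold no further replicate.

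The 10 genes fell into different profiles over the 4 arrays. On the log2 scale, the mean profile of the 5 brighter genes, centred on its own mean, was -0.54 and -0.20 in the xrn4-5 arrays 1 and 2, against -0.10 and 0.85 in the Col-0 arrays 1 and 2. Array 2 of Col-0 was high and the other 3 were lower. ERF2, ERF5 and CBF2, which had no part in that mean, lay within a root mean square distance of 0.202 to 0.262 from it. CBF3 and CBF1 lay at 0.868 and 0.755. Their centred values were 0.26 and 0.66 in xrn4-5 plants against -1.29 and 0.37 in Col-0 for CBF3, and -0.12 and 0.82 in xrn4-5 plants against -0.70 and 0.00 in Col-0 for CBF1.

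**Figure D4:**
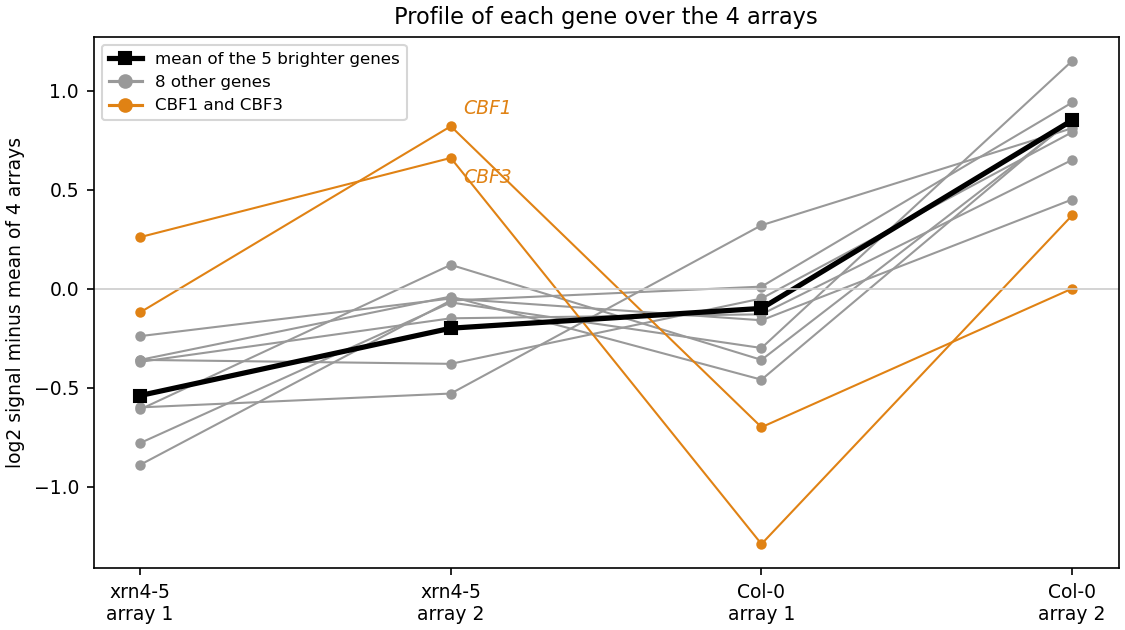
Log2(signal + 32) of each gene minus its own mean over the 4 arrays, with the mean of the 5 brighter genes in black. Array 2 of Col-0 is the high point of that mean at 0.85, whereas CBF1 and CBF3 (orange) have their low point in array 1 of Col-0 and their high point in array 2 of xrn4-5.

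Among 7293 other tested probe sets with 1 named gene, the profile nearest to that mean belonged to ndhG, a chloroplast gene for a subunit of the NADH dehydrogenase-like complex. It had signals of 246.9 and 345.8 in xrn4-5 plants, against 358.6 and 702.4 in Col-0, at a distance of 0.038 over the 4 arrays. Next came AT1G25275 at 0.096, with 1091.3 and 1688.9 in xrn4-5 plants against 1654.9 and 3225.7 in Col-0, and AT4G29780 at 0.102, with 181.0 and 286.2 in xrn4-5 plants against 298.3 and 537.1 in Col-0. AT4G01870, AT2G26190, AT3G13950, AT1G19380 and AT3G04210 followed at 0.116 to 0.139. All 8 had lower estimates in xrn4-5, as their choice by profile fixes, and their limma adjusted p-values lay from 0.447 to 0.589.

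Related genes were only partly covered by named probe sets. Of 47 other rapid stress regulators 5 were named and 1 was tested, and 0 were called. That one was WRKY53, a regulator of leaf senescence, with signals of 178.1 and 192.7 in xrn4-5 plants against 138.8 and 294.8 in Col-0 (log2 difference -0.12, limma adjusted p = 0.930). ORA47, an AP2/ERF gene too dim for the test, had 77.2 and 193.3 in xrn4-5 plants against 83.8 and 233.9 in Col-0, so that array 2 was the higher one in both genotypes. WRKY22 had 88.6 and 106.2 in xrn4-5 plants against 105.7 and 116.2 in Col-0, and WRKY6 had 108.6 and 92.2 in xrn4-5 plants against 93.9 and 108.4 in Col-0. AT3G53600 had signals of at most 6.5. Array 2 of Col-0 was the highest of the 4 arrays in 3 of these 5 genes.

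Of 19 touch and calcium-responsive genes besides TCH4, 6 were named, 2 were tested and 0 were called. CML42, a calmodulin-like protein gene, had signals of 203.1 and 301.7 in xrn4-5 plants against 297.9 and 366.5 in Col-0 (log2 difference -0.37, limma adjusted p = 0.655). XTH19, of the same enzyme family as TCH4, had 569.4 and 306.9 in xrn4-5 plants against 752.6 and 286.6 in Col-0 (log2 difference -0.15, limma adjusted p = 0.946). In XTH19 array 1 was the higher one in both genotypes, opposite to TCH4. The remaining 4, CML37, CML38, CML39 and XTH18, were dim, with signals from 1.9 to 70.9.

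Genes around the CBF regulators were measured in small number. Upstream of CBF, 3 of 19 genes were named and tested and 0 were called: SIZ1, a SUMO ligase that stabilizes the CBF activator ICE1, averaged 587 ± 7.14 in xrn4-5 and 642 ± 33.9 in Col-0 (SD, n = 2 each), and EIN3, the ethylene transcription factor that represses CBF genes, averaged 1601 ± 124 in xrn4-5 and 1502 ± 90.2 in Col-0 (SD, n = 2 each). AT4G16150 averaged 227 ± 1.91 in xrn4-5 and 208 ± 45.0 in Col-0 (SD, n = 2 each). TINY, the only named member of 12 DREB relatives, had 125.5 and 128.9 in xrn4-5 plants against 88.1 and 91.7 in Col-0 and was too dim for the test. Of 18 CBF target genes 4 were named and tested, all 4 with higher estimates in xrn4-5 and 0 called, at a median log2 difference of 0.65 beside 0.01 over the tested probe sets. That median was -0.11 without array 1 of Col-0 and 1.42 without array 2 of Col-0, in a comparison added after the data were seen. The freezing protection gene COR15A had signals of 5107.9 and 6277.5 in xrn4-5 plants against 2421.5 and 4777.5 in Col-0 (limma adjusted p = 0.560). The xrn4-5 arrays both lay above those of Col-0, and array 1 of Col-0 was lowest, as for CBF3. The dehydrin gene LTI30 had 251.4 and 615.2 in xrn4-5 plants against 85.5 and 547.0 in Col-0 (limma adjusted p = 0.812), again with array 1 of Col-0 lowest. COR15B, a close relative of COR15A, had 794.3 and 2540.0 in xrn4-5 plants against 438.3 and 1997.3 in Col-0, so its genotypes overlapped. Without array 1 of Col-0 the estimates of LTI30 and COR15B were -0.44 and -0.48, while those of COR15A and COR47 stayed above 0 at 0.24 and 0.22. COR47, also a dehydrin gene, had 4820.8 and 4573.5 in xrn4-5 plants against 4375.5 and 4024.7 in Col-0. Its lowest signal was in array 2 of the wild type.

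The CBF genes are gated by the circadian clock, and the labels give no hour of harvest. Of 17 clock genes GI alone was named. GI, an evening gene, had signals of 431.2 and 536.9 in xrn4-5 plants against 214.1 and 360.3 in Col-0, with an estimate of 0.72 on the log2 scale (limma unadjusted p = 0.0286, adjusted p = 0.493). As for COR15A and CBF3, array 1 of Col-0 was the lowest. It was also the lowest for ERF5 and WRKY53, while CBF2 had its lowest signal in array 1 of xrn4-5. No share over all probe sets is given for this, so it is not read as a link between these genes. The part of harvest time in the values of the CBF genes was not tested.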

How the data were processed

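In the deposited value table each probe set has an intensity for each array, on a linear scale. The submitters' processing notes name GCOS without a version, and the 2% trimmed mean was 500.04 in all 4 arrays, so the values had been scaled before they were deposited. The authors' deposited table of comparisons gives a log2 ratio, rounded to 1 decimal, and a change p-value per pair of same-numbered arrays, per the file headers. The sources used here do not give their computation.

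Intensities were analysed as log2(value + 32) without further normalization. The 64 control probe sets and the 40% of the rest with the lowest mean over the 4 arrays were left out. Genotypes were compared two-sided by limma 3.58.1 under R 4.3.3, using lmFit and eBayes with trend, 2 residual and 3.71 prior degrees of freedom, and Benjamini-Hochberg adjustment over 13647 probe sets at 0.05. Genes too dim for that were taken from the same fit of all 22746 probe sets. The fit was also run on simulated data, with noise independent between arrays and spreads shuffled over probe sets. That run does not cover the gaps that same-numbered arrays share. Only 2 arrays per genotype limit the precision, and an exact permutation test could not go below 0.333. Arrays of a genotype were not duplicates, with 47 values equal as deposited in xrn4-5 and 46 in Col-0, among 22746 probe sets. Figures were drawn with matplotlib 3.10.9.

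Genes outside the 10 were named from the platform annotation through gene identifiers to TAIR10.1 names. There 13513 probe sets have 1 gene (13436 matched), 503 have several and 8730 are not listed. Where a gene had more than 1, the probe set with the highest mean was taken. Named were all 10 genes, up to 3 tested genes with the smallest p per list, and the 8 genes with the nearest profile. Dim genes of the lists, and COR15B, were named after their values were seen. The 10 genes and the lists were chosen with earlier results of these data known. Alternatives changed the pseudocount, the filter, the normalization, the variance trend, the array number as a block and the arrays used; the CBF target genes without each array were added after the data were seen.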

Additional observations from a re-analysis of the deposited data

How the results depend on the processing

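No gene of the 10 was called higher in xrn4-5 under any alternative tried: pseudocounts of 1 and 100, no filter on dim probe sets, quantile normalization, median centring, eBayes without trend, the replicate block, and leaving out each array, where the count ranged from 0 to 0. With an array left out 1 residual degree of freedom remains and the spread of the genotype with a single array is taken from the other one, so a count of 0 there says nothing about stability. The count called lower was 0 under the same alternatives, from 0 to 0 with an array left out, except that the array number as a replicate block gave 1, which is TCH4 (limma adjusted p = 0.0315), when 0.447% of tested probe sets were called lower. No label ties the array numbers to a batch or a harvest. The array gaps of the genotypes correlated at 0.42 over tested probe sets and at 0.21 over all probe sets. With all 4 arrays, the pseudocounts, quantile normalization and median centring turned the sign of 0 of 40 recomputed differences. Without array 2 of Col-0, WRKY40 turned to 0.11 (range with an array left out from -1.09), ERF5 to 0.26 (from -1.06) and CBF2 to 0.01 (from -0.59). By the mean ratio in the authors' deposited table CBF2 was 0.25. The cause was not tested. The other 7 genes did not change sign under the 12 alternatives, but with an array left out STZ, WRKY33, CBF1 and CBF3 came as near to 0 as -0.12, -0.13, 0.23 and 0.09. The median of the CBF target genes, 0.65, ranged from -0.11 to 1.42 with an array left out, an alternative added after the data were seen. The median gap between the Col-0 arrays, 0.88, was 1.21 with a pseudocount of 1 and 0.68 with 100. No detection calls were used here, so signal over background was not assessed for the dim genes.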
